A study of Homo sapiens with 20 samples.

Results

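The genes described here encode heat shock proteins and the DNAJ cochaperones that work with them. They were chosen by symbol alone: every gene with a probe set annotated to it and to no other gene, and a symbol that starts with HSPA, HSPB, HSPD, HSPE, HSPH, HSP90, DNAJA, DNAJB or DNAJC. The array held 73 such genes among 19353, and 54 of them were among the 10834 genes tested, which required a mean level above 4.5 on the log2 scale in at least 1 group. The prefix also brought in HSPBP1 and HSPBAP1, whose products bind HSP70 and HSPB1 and are not small heat shock proteins, and 5 non-coding RNAs, of which DNAJC3-DT was tested. HSPA8, HSPA1A, HSPA1B and HSP90B1 have no probe set that names them alone and are not reported here.

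Affymetrix U133 Plus 2.0 arrays measured total RNA of HEK293 cells, an established human embryonic kidney line, in 4 groups of 5. The induced group is a Flp-In T-REx HEK293 line carrying an EGFP-tagged human ZFP36 transgene, treated for 16 h with 1 µg/ml doxycycline, which switches the transgene on. Mock-induced cells are the same line with water instead of doxycycline, and the parental doxycycline and parental vehicle groups are Flp-In T-REx HEK293 cells without the transgene, treated for the same time with doxycycline or water. ZFP36 (tristetraprolin) binds AU-rich elements in the 3′ UTRs of mRNAs and recruits the machinery that degrades them. Induced cells were sorted for GFP fluorescence and mock-induced cells for its absence, from flasks that also differed in confluence and in floating cells, so transgene, gate and cell density cannot be told apart in the comparison of these groups. Cells were pooled from several flasks per treatment, so an array is a pool from 1 day of culture, and fewer cells with a transcript cannot be told apart from less transcript per cell.

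HSP70 chaperones bind and release unfolded stretches of other proteins in a cycle driven by ATP. DNAJ proteins, named for a J domain, bring substrates to HSP70 and start ATP hydrolysis, and nucleotide exchange factors such as the HSP110 proteins reset the cycle. HSP90 acts late in the folding of kinases and receptors, HSP60 and its lid HSP10 fold proteins inside mitochondria, and small heat shock proteins hold unfolded proteins in solution. Many of these genes are switched on by the transcription factor HSF1 under heat or proteotoxic stress, and those of the endoplasmic reticulum (ER) by the unfolded protein response.

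Levels are the authors' GCRMA values on the log2 scale, on which a step of 1 is a doubling, and they were compared only within a gene. Of the HEK293 markers, VIM, NEFL and INA were above 4.5 in all 4 groups and NEFM was below it in mock-induced cells, whereas 4 blood and 3 endothelial markers were below it throughout. In parental vehicle replicate 4 the mean correlation with the other arrays of its group was 0.993, the lowest of the 20, and its actin 3′ minus 5′ signal, which grows with RNA degradation, was 2.18 against a highest value of 1.97 elsewhere. That signal averaged 1.31 ± 0.13 (SD, n = 5) in induced and 1.52 ± 0.14 in mock-induced arrays (two-sided exact permutation p = 0.0476), and spiked-in poly-A transcripts averaged 8.06 ± 0.21 and 7.74 ± 0.16 (exact permutation p = 0.0238). The part of the actin difference in the results was not tested, and calls after centring on the poly-A transcripts are given with the counts for induction.

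Induction was accompanied by changes in both directions in these families. Of the 54 genes tested, 14 fell and 12 rose between mock-induced and induced cells at a Bonferroni-adjusted limma p under 0.01, the largest measured fall being 6.29-fold for DNAJC10 and the largest rise 5.37-fold for DNAJC28. Fallers made up 25.9% of the 54 where 23.1% of all genes tested fell, and risers 22.2% where 28.8% of all genes rose. DNAJC15, among the fallers, and DNAJB5, which did not pass, exceeded 4.5 in 1 group alone, mock-induced and induced cells in turn, so a difference in them was fixed by the filter and its size is only a bound. The median difference was −0.11 for these genes and 0.20 for all genes tested. The median over all genes moved to 0.08 when the arrays were centred on hybridization controls and to −0.12 when they were centred on poly-A controls. Under the former centring 14 of the 54 genes fell and 10 rose, and under the latter 17 fell and 5 rose. Of all 10834 genes tested, 2596 fell and 2687 rose under the former, and 3276 fell and 1991 rose under the latter. Poly-A centring ended the calls of DNAJC2, DNAJC4, DNAJC7, DNAJC13, DNAJC16, DNAJC18 and HSPA4, all of them higher, and added DNAJB4, DNAJC24 and DNAJC3-DT as lower. A separate spread for each group ended the calls of DNAJB6, DNAJC15 and HSPH1 among those lower, and of DNAJB1, DNAJC4, DNAJC16, DNAJC18, DNAJC28 and HSPA4 among those higher. Taking same-numbered arrays as blocks ended the calls of HSPA5, HSP90AB1, DNAJB6 and DNAJB14 among those lower, and of DNAJC4, DNAJC16 and HSPA4 among those higher. Wherever the groups of a gene did not overlap, the two-sided exact permutation p was 0.00794, the smallest that 5 against 5 arrays can give.

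**Figure D1:**
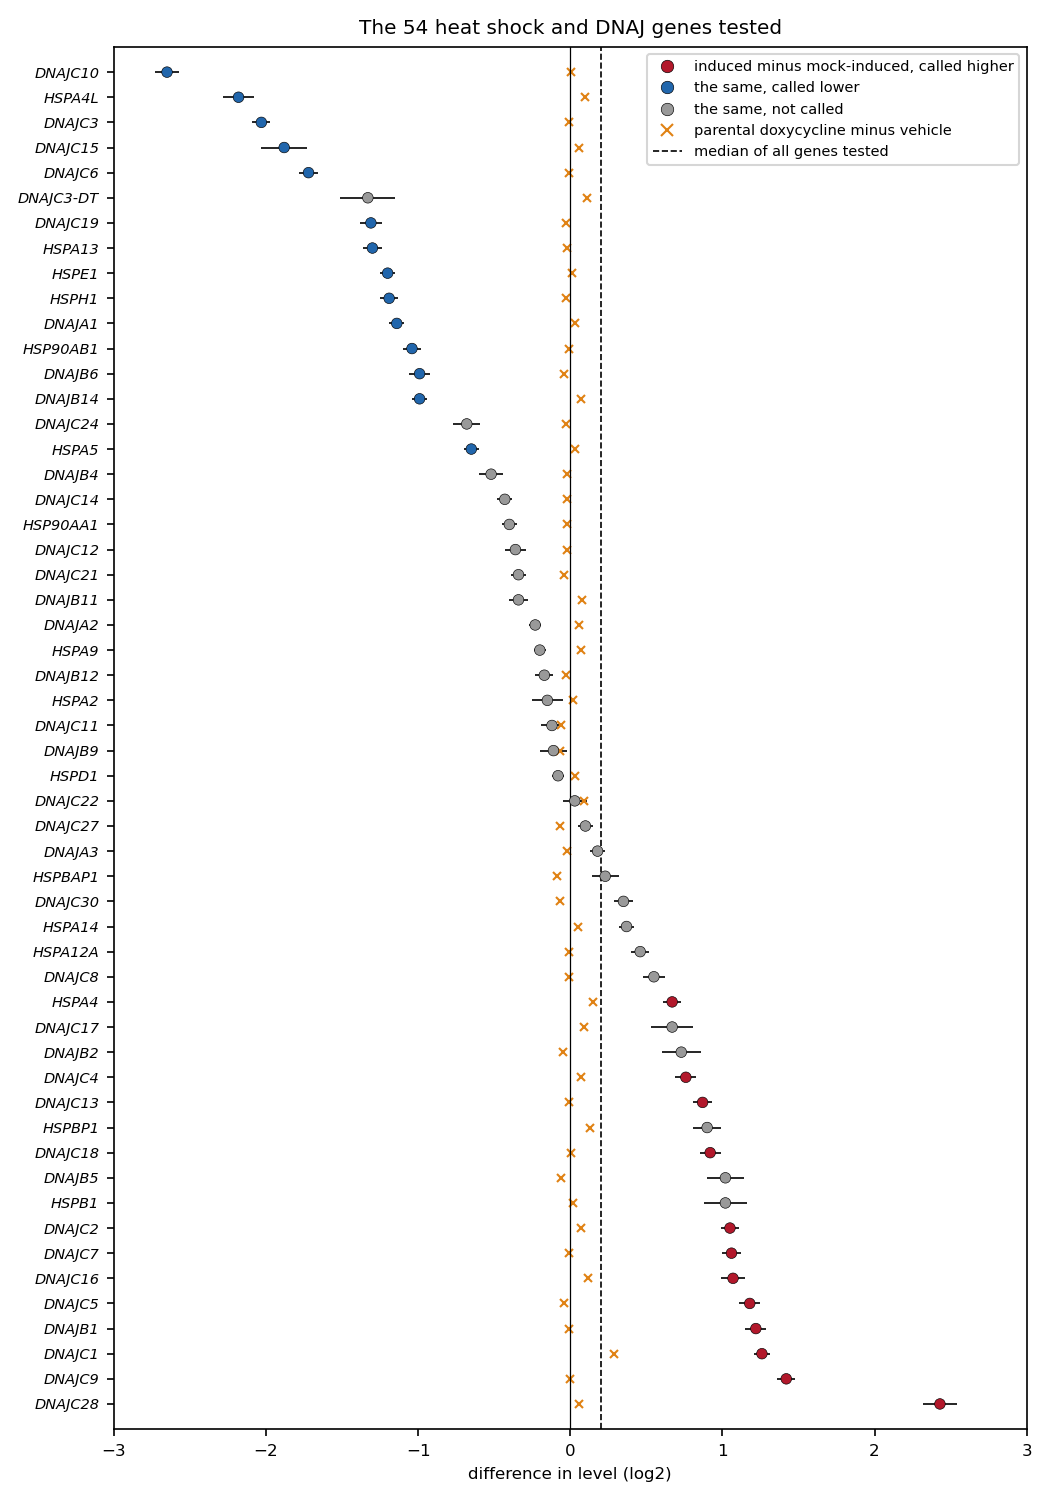
Difference in level (log2, x axis) for each of the 54 genes tested (y axis), as induced minus mock-induced cells with its SE (circles, 5 arrays per group) and as parental doxycycline minus vehicle cells (crosses); the dashed line is the median of all genes tested, induced minus mock-induced. The circles run from −2.65 for DNAJC10 to 2.43 for DNAJC28, whereas all crosses lie between −0.09 and 0.29. The circles of DNAJC15 and DNAJB5 take in levels under 4.5 and are not measured sizes.

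Among all genes tested, 23.1% fell and 28.8% rose, with a median of 0.20. The heat shock proteins proper, 14 genes tested, leaned downward: 6 fell (42.9%) and 1 rose (7.14%), with a median of −0.30. Centring on hybridization or poly-A controls left 6 called lower and 0 higher, with medians of −0.41 and −0.62. All genes tested had medians of 0.08 and −0.12 there, with 2596 and 3276 of 10834 lower. Taking same-numbered arrays as blocks ended the calls of HSPA5, HSP90AB1 and HSPA4, while HSPB1 gained one, higher. A separate spread for each group ended those of HSPH1 and HSPA4. For the 37 DNAJ proteins tested, 8 fell (21.6%) and 11 rose (29.7%), near the shares of all genes. Their median of 0.03 turned to −0.08 and −0.29 under the same centrings. Within the DNAJ proteins, 5 of 25 DNAJC genes fell and 10 rose (20% and 40%, median 0.35). That split depended on the scaling. Hybridization centring gave 5 lower and 8 higher (median 0.24), and poly-A centring 6 lower and 4 higher (median 0.03). Of 9 DNAJB genes, 2 fell and 1 rose (22.2% and 11.1%, median −0.17), and 1 of 3 DNAJA genes fell (33.3%, median −0.23). These subgroups were formed with the values known, so their counts are descriptions.

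**Figure D2:**
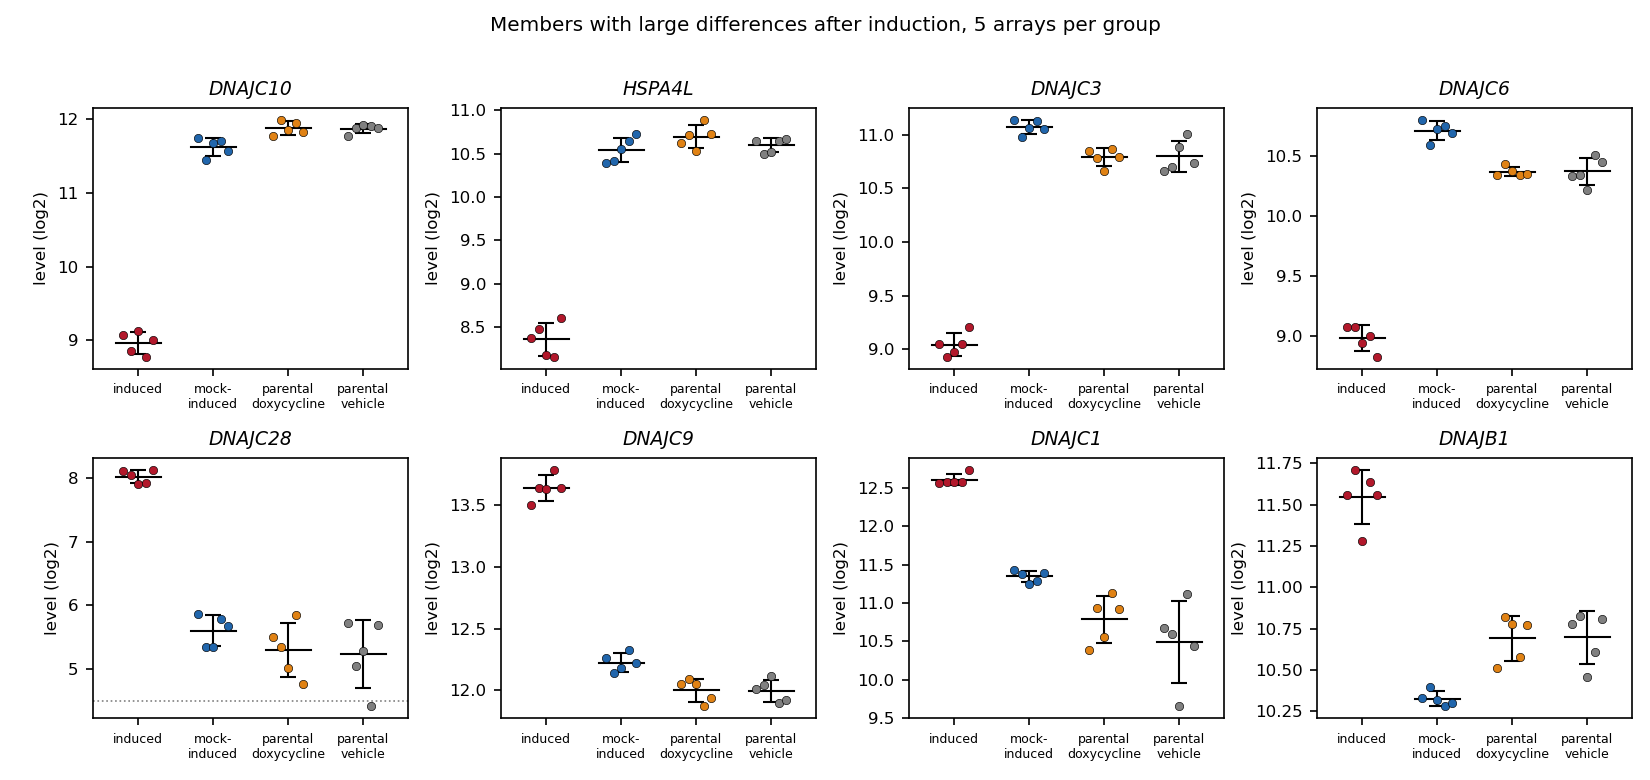
Level (log2, y axis) on each array of the 4 groups for 8 genes with large differences after induction; horizontal bars are means and error bars SDs (n = 5), and the dotted line marks 4.5. For DNAJC10, HSPA4L, DNAJC3 and DNAJC6 all 5 induced arrays lie below every other array, and for DNAJC28, DNAJC9, DNAJC1 and DNAJB1 they lie above every other array.

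In the HSP70 and HSP110 family, 4 of 9 genes fell and 1 rose (44.4% and 11.1%), where 23.1% and 28.8% of all genes tested did. The HSP110 branch moved both ways. HSPA4L, an HSP110 relative that acts as a nucleotide exchange factor, read 8.38, 8.48, 8.18, 8.16 and 8.60 on the induced arrays and 10.39, 10.41, 10.55, 10.64 and 10.72 on the mock-induced arrays. The groups did not overlap, and the level fell 4.53-fold (log2 difference −2.18, SE 0.10, adjusted p = 3.02e-06). Its other probe set, from 9.57 to 8.78, differed by only −0.78 and did not pass. HSPH1, the inducible HSP110, read 10.74, 10.80, 10.81, 10.52 and 10.73 against 11.98, 11.90, 11.85, 11.90 and 11.91. This fall was 2.28-fold (−1.19, SE 0.06, adjusted p = 8.44e-06), again with no overlap. HSPA4, the third HSP110 protein, was on the other side, with induced arrays between 13.22 and 13.50 and mock-induced arrays between 12.62 and 12.84. It rose 1.59-fold (0.67, SE 0.06, adjusted p = 0.00688), close to the threshold, and the call was lost without any of 8 of the 10 arrays, under both centrings and with its other probe set, which differed by 0.23.

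HSPA5 (BiP), the HSP70 of the ER lumen and sensor of unfolded proteins there, read 13.13, 13.21, 13.02, 13.08 and 13.15 in induced cells and 13.80, 13.80, 13.73, 13.79 and 13.70 in mock-induced cells. It fell 1.57-fold (−0.65, SE 0.05, adjusted p = 3.99e-04), and its second probe set fell by 1.82 on the log2 scale. HSPA9 (mortalin), the mitochondrial HSP70 that pulls proteins through the inner membrane, read 13.71 to 13.86 against 13.96 to 14.03 and did not pass (−0.20, SE 0.04, adjusted p = 1). HSPA2, HSPA12A and HSPA14 did not pass either, with differences of −0.15, 0.46 and 0.37.

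HSPA13 (STCH), a truncated HSP70 relative associated with the ER, fell 2.46-fold. Its induced arrays read 9.83, 9.71, 9.90, 9.60 and 9.75, and its mock-induced arrays 11.18, 11.06, 11.03, 11.04 and 10.96. All induced arrays were lower (−1.30, SE 0.06, adjusted p = 7.16e-06). HSPA13 had 5 of the 9 ZFP36 site sequences that the part of the study's site table used here lists for genes with these symbols, all in 3′ UTRs. They are shown because they are the stretches of these mRNAs that ZFP36 was cross-linked to, in a line with a FLAG/HA-tagged ZFP36. Coordinates are hg19 as listed, where end minus start equals the length, so the start may count from 0. Capitals mark TATT, the DNA form of the UAUU half-site that ZFP36 contacts, and ATTTA, the AU-rich pentamer, including where they overlap.
HSPA13 site at chr21:15743835-15743856, minus strand: tcttcaatcaTATTttagtgg
HSPA13 site at chr21:15744395-15744416, minus strand: ttactaaTATTtttcatatct
HSPA13 site at chr21:15744571-15744598, minus strand: cttcaTATTATTcaaaaattatatcct
HSPA13 site at chr21:15745391-15745416, minus strand: ccaTATTatataacaaATTTAcatt
HSPA13 site at chr21:15745606-15745634, minus strand: cacttaacattaTATTctataaacatta
HSPA9 site at chr5:137891189-137891211, minus strand: aaacttagcTATTTATATTagg
HSPA1B site at chr6:31797786-31797809, plus strand: taattagctggcttcatTATTtt
DNAJB14 site at chr4:100819301-100819326, minus strand: tttttactttaattatacttttatg
DNAJB9 site at chr7:108213892-108213912, plus strand: atttcactttaaacaatttg

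TATT was present in 7 of these 9 sequences and in 77.9% of all 1026 3′ UTR site sequences in that part of the table, and ATTTA in 2 of 9 and in 42.5%. Of the 4 genes with a site and a probe set of their own, HSPA13 and DNAJB14 fell, and HSPA9 and DNAJB9 did not pass. Among all genes tested, 23.1% fell, and whether sites go with falls was not tested. The call of DNAJB14 was lost with averaged probe sets and with same-numbered arrays as blocks. DNAJB14, an ER membrane DNAJ protein, read 8.78, 8.88, 8.96, 8.95 and 9.03 in induced and 10.01, 9.85, 9.92, 9.89 and 9.90 in mock-induced cells (−0.99, SE 0.05, adjusted p = 2.34e-05). DNAJB9 (ERdj4), which hands unfolded proteins to BiP, read 8.65 to 9.01 against 8.68 to 9.03, so the groups overlapped (−0.11, SE 0.09, adjusted p = 1).

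The largest measured fall was in the ER as well. DNAJC10 (ERdj5), a reductase that opens disulfide bonds of misfolded proteins before their export for degradation, read 9.07, 8.86, 9.13, 8.78 and 9.0 in induced and 11.74, 11.44, 11.67, 11.70 and 11.56 in mock-induced cells (−2.65, SE 0.08, adjusted p = 4.79e-08). The 4 DNAJC10 probe sets above 4.5 did not move together, however: a second one fell at least 14.6-fold, from a mean of 8.37 to one of 3.35, which is under 4.5, while the other two differed by 0.24 and 0.13 and did not pass. DNAJC3 (p58IPK), a BiP cochaperone that also restrains eIF2α kinases, read 9.05, 8.93, 8.97, 9.05 and 9.21 against 11.14, 10.98, 11.06, 11.13 and 11.05. It fell 4.09-fold (−2.03, SE 0.06, adjusted p = 2.85e-08). Its other probe sets above 4.5 differed by −0.22 and −2.27 and did not pass over all probe sets. The divergent transcript DNAJC3-DT, which starts beside DNAJC3 on the opposite strand, read 4.83 ± 0.33 against 6.15 ± 0.33 (SD, n = 5) and did not pass (−1.33, SE 0.18, adjusted p = 0.212).

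Of the 12 ER genes tested, 5 fell (DNAJC10, DNAJC3, HSPA13, DNAJB14 and HSPA5) and 3 rose (DNAJC1, DNAJC16 and DNAJC18), with a median of −0.39. These were 41.7% and 25% of the 12, where 23.1% and 28.8% of all genes tested fell and rose. DNAJC1 (ERdj1), a membrane protein that binds ribosomes and BiP, read 12.57, 12.58, 12.58, 12.58 and 12.74 in induced and 11.43, 11.38, 11.25, 11.28 and 11.39 in mock-induced cells. It rose 2.40-fold (1.26, SE 0.05, adjusted p = 1.14e-06), and all 3 of its probe sets rose. DNAJC16, an ER membrane protein, rose 2.10-fold, from 8.48 to 8.68 on the mock-induced arrays to 9.45 to 9.89 on the induced arrays (1.07, SE 0.08, adjusted p = 4.80e-04). Its other probe set above 4.5 differed by 0.46 and did not pass. DNAJC18 rose by 0.92 (SE 0.07), although 1 of its other probe sets differed by −0.48. The other 4 ER genes did not pass, DNAJB9, DNAJB11, DNAJB12 and DNAJC14, with differences from −0.43 to −0.11.

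HSPA5 was the one gene here whose RefSeq promoter window (GRCh38.p14, 250 bases before to 50 after the start) held an ER stress element, searched on both strands as CCAAT, 9 bases of any kind and CCACG. The element was in 0.0769% of all 35116 windows. It is shown because HSPA5 is the textbook target of the unfolded protein response, with capitals marking the element.
HSPA5 promoter, chr9:125241379-125241421, minus strand: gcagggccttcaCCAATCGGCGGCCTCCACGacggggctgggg

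**Figure D3:**
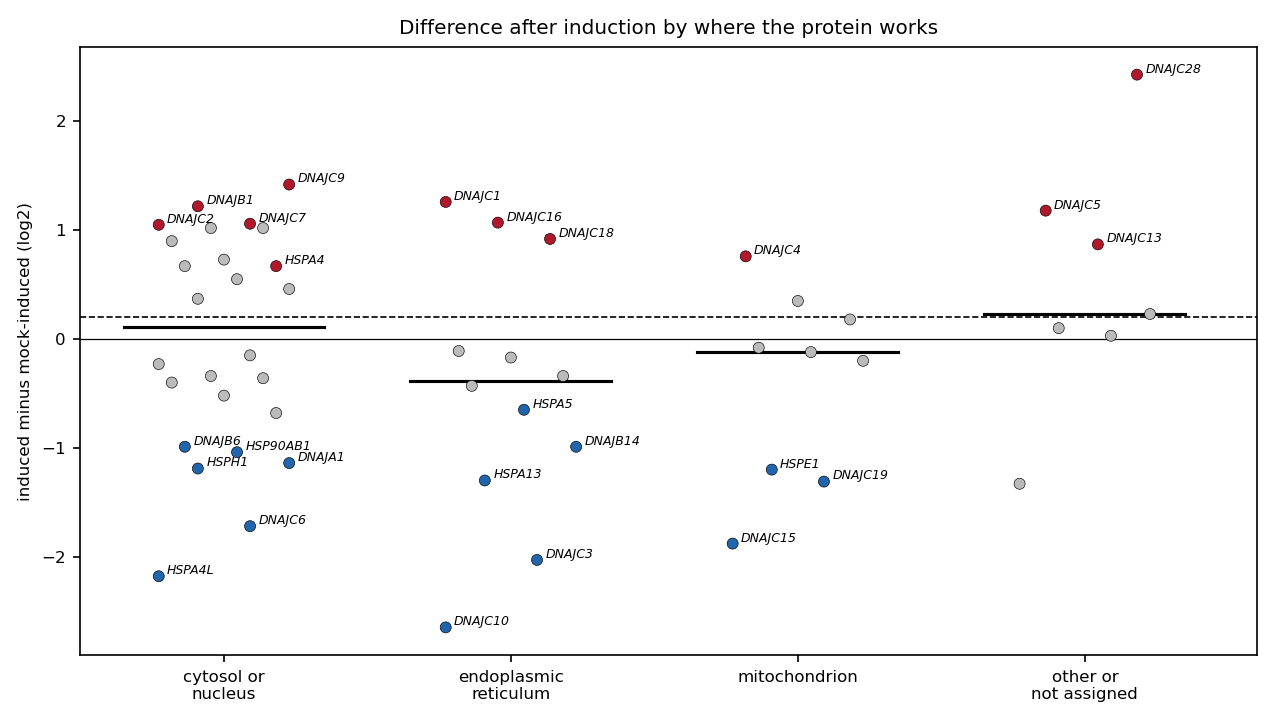
Difference in level between induced and mock-induced cells (log2, y axis) for the 54 genes tested, set out by where the protein works (x axis), with genes that passed the test coloured (red higher, blue lower) and named; thick bars are medians and the dashed line is the median of all genes tested. The ER column has 5 genes called lower and 3 higher, and the mitochondrial column 3 lower and 1 higher. Of all genes tested, 23.1% were called lower and 28.8% higher.

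In mitochondria, 3 of 9 genes fell and 1 rose (33.3% and 11.1%), where 23.1% and 28.8% of all genes tested did. DNAJC15 (MCJ), an inner membrane protein that restrains the respiratory chain, read 4.30, 3.90, 4.36, 4.02 and 3.52 in induced and 6.03, 5.92, 5.93, 5.99 and 5.62 in mock-induced cells. All induced arrays were under 4.5, so the fall is given as at least 2.63-fold, and a difference was fixed by the filter. DNAJC19 (TIM14), part of the motor that draws proteins into the matrix, read 9.39, 9.21, 9.37, 9.26 and 9.12 against 10.73, 10.66, 10.43, 10.56 and 10.50. This was a 2.47-fold fall (−1.31, SE 0.07, adjusted p = 2.54e-05), and the second probe set fell by 2.75. DNAJC4 rose by 0.76 (SE 0.07, adjusted p = 0.004). This call was lost without any single induced array, and without mock-induced replicate 1 or 2.

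The HSP10 gene fell and the HSP60 gene did not pass. HSPE1 (HSP10), the lid of the mitochondrial folding chamber, read 12.59, 12.56, 12.67, 12.68 and 12.67 in induced and 13.92, 13.74, 13.83, 13.80 and 13.88 in mock-induced cells, a 2.30-fold fall (−1.20, SE 0.05, adjusted p = 7.42e-07). HSPD1 (HSP60), the chamber itself, read 15.37, 15.39, 15.38, 15.44 and 15.37 against 15.49, 15.41, 15.49, 15.52 and 15.42. The groups overlapped, and HSPD1 did not pass (−0.08, SE 0.04, adjusted p = 1). A second HSPD1 probe set differed by −0.02, and another, dimmer one by −1.51 (adjusted p = 0.0125 over all probe sets). Whether HSPE1 and HSPD1 differed from each other was not tested. The genes lie head to head, and an HSPD1 RefSeq promoter window shares 204 bases with that of HSPE1, of which 71.1% are G or C. Another HSPD1 window does not overlap that of HSPE1. The shared stretch is shown, on the HSPE1 strand, because it lies in windows of both genes.
HSPE1 and HSPD1 shared promoter, chr2:197500225-197500428, plus strand: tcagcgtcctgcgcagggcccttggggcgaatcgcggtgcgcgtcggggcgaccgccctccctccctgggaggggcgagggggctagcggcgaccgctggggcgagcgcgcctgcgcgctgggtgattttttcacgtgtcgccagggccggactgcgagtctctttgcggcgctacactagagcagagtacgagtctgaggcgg

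In the cytosol and nucleus, 6 of 26 genes fell and 5 rose (23.1% and 19.2%), where 23.1% and 28.8% of all genes tested did. HSP90AB1, the constitutive HSP90, read 13.35, 13.46, 13.57, 13.29 and 13.45 in induced and 14.39, 14.49, 14.47, 14.58 and 14.39 in mock-induced cells. It fell 2.06-fold (−1.04, SE 0.06, adjusted p = 4.98e-05), and its 3 probe sets differed by −1.13 to −1.01. HSP90AA1, the inducible HSP90, read 15.57 to 15.67 against 15.95 to 16.15 and did not pass with its brightest probe set (−0.40, SE 0.05, adjusted p = 0.0821), although 2 of its other 3 probe sets passed over all probe sets, with differences of −0.49 and −0.53. TRAP1, the mitochondrial HSP90, which lies outside the symbol rule, rose by 0.60 (SE 0.06, adjusted p = 0.00754).

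The cytosolic HSP70 partners DNAJA1 and DNAJB1 passed in opposite directions. DNAJA1 (HDJ2), a general partner of HSP70, read 12.62, 12.54, 12.46, 12.54 and 12.57 in induced and 13.71, 13.75, 13.62, 13.74 and 13.63 in mock-induced cells. It fell 2.21-fold (−1.14, SE 0.05, adjusted p = 1.28e-06). DNAJB1 (HSP40), the heat-inducible partner, read 11.56, 11.71, 11.28, 11.64 and 11.56 against 10.33, 10.40, 10.32, 10.28 and 10.30. It rose 2.33-fold (1.22, SE 0.07, adjusted p = 5.04e-05). DNAJB6, which keeps polyglutamine proteins from aggregating, read 9.11 to 9.53 against 10.30 to 10.38 and fell 1.98-fold (−0.99, SE 0.07, adjusted p = 3.15e-04). DNAJC6 (auxilin), which strips clathrin from vesicles, read 9.08, 9.08, 8.94, 9.0 and 8.83 against 10.80, 10.59, 10.72, 10.75 and 10.69, and fell 3.30-fold (−1.72, SE 0.06, adjusted p = 2.04e-07).

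HSPB1 (HSP27), the only small heat shock protein tested, read 8.55, 8.12, 8.05, 8.39 and 8.0 in induced and 7.62, 7.18, 6.95, 7.26 and 7.0 in mock-induced cells. The groups did not overlap, but the difference did not pass the Bonferroni threshold (1.02, SE 0.14, adjusted p = 0.217). HSPBP1, an HSP70 nucleotide exchange factor, missed it narrowly (0.90, SE 0.09, adjusted p = 0.0109).

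Among the risers, DNAJC28, whose function is little known, read 8.12, 8.05, 7.91, 7.93 and 8.14 in induced and 5.87, 5.35, 5.35, 5.79 and 5.67 in mock-induced cells (2.43, SE 0.11, adjusted p = 2.67e-06). DNAJC9, which chaperones histones H3 and H4, read 13.50, 13.64, 13.63, 13.79 and 13.64 against 12.26, 12.14, 12.18, 12.33 and 12.22. It rose 2.67-fold (1.42, SE 0.06, adjusted p = 1.22e-06). DNAJC2 (zuotin), which sits on the ribosome with HSPA14 and receives new chains, read 13.46 to 13.66 against 12.39 to 12.62 and rose 2.08-fold (1.05, SE 0.06, adjusted p = 2.31e-05). Its partner HSPA14 differed by 0.37 (SE 0.05, adjusted p = 0.276).

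DNAJC5 (cysteine string protein), which guards vesicle fusion proteins, rose 2.27-fold from 8.17 to 8.48 on the mock-induced arrays to 9.47 to 9.66 on the induced arrays (1.18, SE 0.07, adjusted p = 2.94e-05). DNAJC7 (TPR2), which passes substrates between HSP70 and HSP90, rose 2.09-fold from 12.17 to 12.43 to 13.29 to 13.48 (1.06, SE 0.06, adjusted p = 4.87e-05). Its other probe set above 4.5 differed by 0.32 and did not pass. DNAJC13 (RME-8), which works on endosomes, rose by 0.87 (SE 0.06, adjusted p = 2.07e-04).

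The heat shock element, to which HSF1 binds, was searched in the promoter windows on both strands as 3 units of GAA and TTC in turn, separated by 2 bases of any kind. It was in 172 of 35116 windows (0.49%). A gene can have several windows, so a share of genes cannot be set against this share of windows. Of the 66 genes here with a window, 6 had the element. Of these 6, DNAJA1, DNAJB6 and HSP90AB1 fell, HSP90AA1 and HSPD1 did not pass, and HSPA6 was not tested. Among all genes tested, 23.1% fell and 28.8% rose, and whether the element goes with a fall was not tested. Taking same-numbered arrays as blocks ended the calls of DNAJB6 and HSP90AB1, and a separate spread for each group that of DNAJB6. HSP90AB1 and HSPD1 each hold 2 matches, which overlap in HSPD1. The HSPD1 window with these matches is not the one that overlaps the HSPE1 window. DNAJB1 rose without a match in its window, which says only that these letters are not there. The matches are shown because they are the members whose promoters carry this sequence, with capitals marking the elements and 12 bases on each side where the window reaches so far.
DNAJA1, chr9:33025264-33025300, plus strand: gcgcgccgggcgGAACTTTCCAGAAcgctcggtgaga
DNAJB6, chr7:157336861-157336897, plus strand: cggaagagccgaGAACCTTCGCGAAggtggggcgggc
HSP90AA1, chr14:102087108-102087144, minus strand: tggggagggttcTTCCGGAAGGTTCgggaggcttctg
HSP90AB1, chr6:44247766-44247855, plus strand: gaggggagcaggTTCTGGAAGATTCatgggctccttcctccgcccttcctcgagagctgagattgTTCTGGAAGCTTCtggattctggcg
HSPD1, chr2:197500056-197500090, minus strand: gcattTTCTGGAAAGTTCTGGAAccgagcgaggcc
HSPA6, chr1:161524454-161524490, plus strand: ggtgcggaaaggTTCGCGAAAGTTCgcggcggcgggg

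HSPA6, a strictly stress-inducible HSP70 of human cells, stayed between 2.19 and 2.23 on all 20 arrays, where 2.19 is the lowest value of the table. Of the 19 genes not tested, 18 read below 3 on every array, among them HSPB2, HSPB3, HSPB6, HSPB7 and HSPB8, DNAJA4 and HSPA1L. HSPB9 reached 4.35 on its highest array.

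Genes around these families moved in both directions too, where 23.1% of all genes tested fell and 28.8% rose. Of the heat shock factors looked for, HSF1 alone was tested. It rose from 7.52 ± 0.14 to 8.65 ± 0.13 (SD, n = 5, log2 difference 1.12, SE 0.08, adjusted p = 3.72e-04). HSBP1, which binds HSF1 and limits its activity, fell by 0.97 (SE 0.05, adjusted p = 2.84e-05). Of 12 HSP70 exchange factors and adaptors, 3 fell and 0 rose at this threshold (BAG4 −1.98, BAG2 −1.12 and ST13 −0.52), with a median of 0.05. Of 10 HSP90 cochaperones, TRAP1 left aside, 2 fell and 3 rose, with a median of −0.06. CHORDC1 fell by 2.67, and SUGT1, UNC45A and CDC37, which brings kinases to HSP90, rose by 0.92, 1.14 and 1.07. Of 13 subunits of the cytosolic chaperonin and of prefoldin, which delivers actin and tubulin to it, 5 fell and 1 rose, with a median of −0.31. The falls with the smallest p were those of PFDN2 (−2.90), VBP1 (−1.89), CCT8 (−1.51) and PFDN4 (−1.23).

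The array held several probe sets for many of these genes, and the size of a change depended on which was read. Of the 54 genes, 21 had 1 probe set above 4.5 and 33 had more, 106 probe sets in all. Among the 33, all probe sets passed in the same direction for 5 genes (DNAJA1, DNAJC1, DNAJC19, HSPA5 and HSPH1), at a Bonferroni-adjusted p under 0.01 over all probe sets, and for 0 genes did probe sets pass in opposite directions. DNAJA1 differed by −1.14 in its brightest and by −3.54 in its other probe set, and HSPH1 by −1.19 and −3.36. Some genes that did not pass with the brightest probe set had another that did. DNAJA2 (−2.29), DNAJC21 (−2.31) and HSPA14 (−1.21) fell in such a probe set, and DNAJC12, which differed by −0.36 in its brightest, rose by 1.64 in its dimmest.

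**Figure D4:**
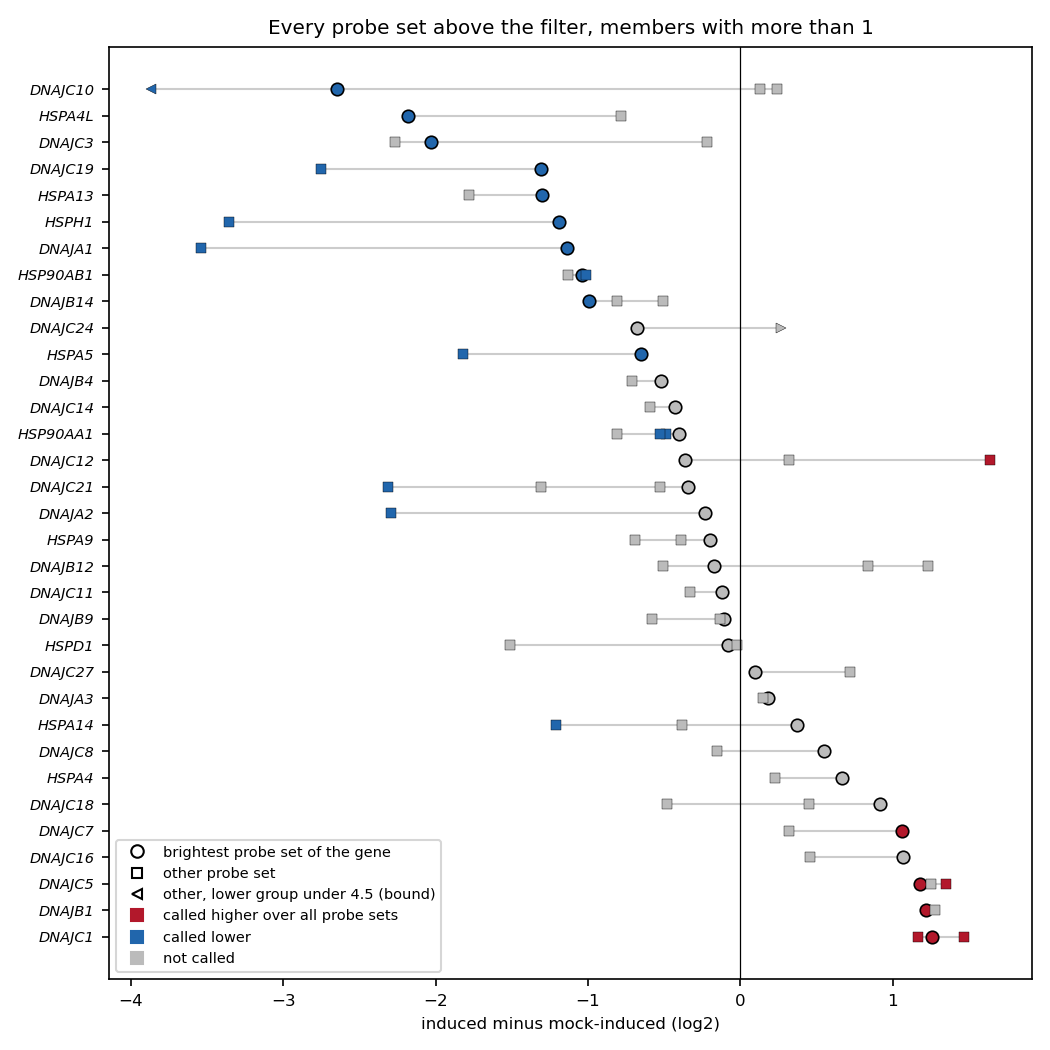
Difference between induced and mock-induced cells (log2, x axis) for every probe set above 4.5 of the 33 genes with more than 1 (y axis, ordered by the brightest probe set); circles are the brightest probe set, squares the others, triangles others whose lower group is under 4.5, placed at the bound measured from 4.5, and colour marks those called over all probe sets (red higher, blue lower). Grey lines span each gene, from a bound of −3.87 to 0.24 for DNAJC10 and from −1.13 to −1.01 for HSP90AB1.

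Doxycycline was given to parental cells to ask what the drug does without the transgene, and there the differences lay between −0.09 for HSPBAP1 and 0.29 for DNAJC1. In these cells 0 of the 54 genes passed, as did 0% of all genes tested, and with a separate spread for each group the count was also 0. At an unadjusted p under 0.05, 1 of the 54 genes stood out, where 2.22% of all genes did. This was HSPA4, which read 13.14, 13.34, 13.22, 13.35 and 13.33 with doxycycline and 13.16, 13.06, 13.24, 13.01 and 13.17 with vehicle (0.15, adjusted p = 1, unadjusted p = 0.0296). HSPBP1 and HSPBAP1 came next, with differences of 0.13 and −0.09. Centring on poly-A controls turned HSPA4 to −0.16 and HSPBP1 to −0.19, where the median of all genes was −0.32.

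The interaction, the doxycycline difference in the transgenic line minus that in parental cells, was called lower for 14 of the 54 genes, where 22.1% of all genes were, and higher for 7, where 25.8% were. It shares the induced and mock-induced arrays with the comparison above. DNAJC10 differed by −2.65 (SE 0.10), HSPA4L by −2.28 (SE 0.13), DNAJC3 by −2.02 (SE 0.10) and HSPE1 by −1.21 (SE 0.07), each with an adjusted p of at most 2.88e-09. Upward, DNAJC28 differed by 2.36 (SE 0.30, adjusted p = 0.00225), DNAJC9 by 1.41, DNAJB1 by 1.23, DNAJC5 by 1.22, DNAJC2 by 0.99 and DNAJC13 by 0.88. The counts include DNAJC15 and DNAJB5, for which no measured size can be given, because a difference in them was fixed by the filter. DNAJC15 averaged 2.33 and 2.27 in the parental groups, near the lowest value of the table, where a fall could not be seen. DNAJB5 averaged 4.52 after induction, but only 3.50 without it, and in the parental line 3.65 with doxycycline and 3.72 with vehicle, so all means but the first were under 4.5. HSPA4 (0.52, adjusted p = 0.148), DNAJC1 (0.97, adjusted p = 1) and DNAJC16 (0.94, adjusted p = 0.185) did not pass. The split was 12 lower and 2 higher with centring on hybridization controls and 5 and 1 with centring on poly-A controls. Of all 10834 genes tested, 2102 were lower and 1147 higher with the former, and 1169 and 689 with the latter.

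The transgenic line without doxycycline already differed from parental vehicle cells in a few of these genes. Of the 54, 4 were lower and 2 higher, or 7.41% and 3.70%, where 10.9% and 13.2% of all genes tested were. This comparison shares the mock-induced arrays with that of induced and mock-induced cells, and the methods describe separate experiments for the lines, with other passage dilutions and growth times, so line and experiment cannot be told apart in it. Without parental vehicle replicate 4, 3 genes were lower and 1 higher. With centring on hybridization controls 2 were lower (DNAJB6 and HSPB1) and 1 higher (DNAJC15), and on poly-A controls 1 lower (HSPB1) and 1 higher (DNAJC15). In each of these counts DNAJC15 exceeded the filter level in mock-induced cells alone, so a difference in it was fixed by the filter.

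DNAJC15 was higher in mock-induced cells, the one group in which it exceeded 4.5. Parental vehicle arrays read 2.32, 2.32, 2.34, 2.19 and 2.19, at or near the lowest value of the table, and parental doxycycline arrays 2.31 to 2.34. Mock-induced arrays were at 5.62 to 6.03, so the gene was at least 2.63-fold higher there, and induced arrays, at 3.52 to 4.36, were also under 4.5. DNAJC15 passed the filter through mock-induced cells alone, so a difference was fixed by the filter and no p is given. The largest difference between measured levels was that of HSPB1. It was 3.55-fold lower in mock-induced cells, with 9.07, 9.22, 9.05, 8.71 and 9.10 in parental vehicle cells (−1.83, SE 0.13, adjusted p = 4.18e-04). Its induced arrays, at 8.0 to 8.55, lay between the 2 groups.

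Mock-induced cells had less DNAJB6 and HSPH1 mRNA than parental vehicle cells, and induced cells less still. DNAJB6 read 11.38, 11.35, 11.40, 11.36 and 11.29 in parental vehicle cells (−1.02, SE 0.04, adjusted p = 5.91e-07), and HSPH1 12.67, 12.79, 12.64, 12.69 and 12.71 (−0.79, SE 0.04, adjusted p = 2.64e-05). DNAJC13 differed by −0.67 in mock-induced cells, from 10.25 ± 0.12 to 9.58 ± 0.07 (SD, n = 5; adjusted p = 0.00622), and its induced level of 10.46 ± 0.10 was above both. DNAJC21, a factor in maturation of the large ribosomal subunit, was higher in mock-induced cells by 0.38, with arrays of 10.39 to 10.48 against 10.00 to 10.06 (SE 0.04, adjusted p = 0.00969). Its call was lost without any of the 10 arrays, and that of DNAJC13 without any of 8 of them. DNAJB14 (0.32, adjusted p = 0.702) and HSPBP1 (0.51, adjusted p = 1) were among the 4 smallest p upward and did not pass.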

How the data were processed

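Per the labels and methods, the authors ran GCRMA (version unstated in the sources used here) on all 20 arrays and deposited log2 values for 50441 probe sets, of which 38070 name 1 gene, 1423 several and 10886 none, and 62 are controls. Names came from the platform annotation. The brightest probe set over all arrays stands for a gene, and the filter kept genes whose mean exceeded 4.5 in 1 or more groups. Comparisons were fitted with limma 3.58.1 in R 4.3.3 on the arrays of the groups compared, the interaction on all 20, and called at a Bonferroni-adjusted p under 0.01 over all 10834 genes tested. Which test the study's own p-values came from is unstated in the sources used here. Where every array of the lower group was under 4.5, the fold of a gene or probe set runs from 4.5. The limma calls were checked on simulated arrays holding known changes. Alternatives were averaged probe sets, no _s_at or _x_at probe sets, no filter, Benjamini-Hochberg adjustment, 2 centrings on control probe sets (18 hybridization, 27 poly-A), a replicate block, a separate spread for each group, all 20 arrays in 1 model, and leaving out each array. Python 3.11.15, numpy 2.4.6, pandas 2.3.3 and matplotlib 3.10.9 were used for tables and figures. The precision of a level is limited by 5 arrays per group, each from a separate day of culture. Genes, lists and subgroups were chosen with earlier results of these data known. Named are the 8 largest falls and rises after induction among genes called, the best known chaperones, genes with a site sequence, the 4 smallest p each way between the lines, the 3 smallest in parental cells, and up to 4 per list of related genes. Others, such as DNAJB5, DNAJC4, DNAJC12, DNAJC18 and DNAJA2, were named after their values were seen. Promoter sequences are from RefSeq (GRCh38.p14), with windows for 66 of the 73 genes.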

Additional observations from a re-analysis of the deposited data

Results flagged for a closer look

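The interaction, the doxycycline difference in the transgenic line minus that in parental cells, was called for 21 of these genes in limma (Bonferroni-adjusted p under 0.01). It was −2.65 for DNAJC10, −2.28 for HSPA4L, −2.02 for DNAJC3, −1.93 for DNAJC15, −1.72 for DNAJC6, −1.28 for HSPA13 and DNAJC19, −1.21 for HSPE1, −1.18 for DNAJA1, −1.16 for HSPH1, −1.07 for DNAJB14, −1.03 for HSP90AB1, −0.95 for DNAJB6 and −0.68 for HSPA5. Upward it was 0.88 for DNAJC13, 0.99 for DNAJC2, 1.09 for DNAJB5, 1.22 for DNAJC5, 1.23 for DNAJB1, 1.41 for DNAJC9 and 2.36 for DNAJC28. The values of DNAJC15, called lower, and DNAJB5, called higher, take in levels under 4.5 and are not measured sizes. A difference in these genes was fixed by the filter, so their calls are not evidence of a change. DNAJC15 was under 4.5 in induced and both parental groups, where a fall with doxycycline in parental cells could not be seen, and DNAJB5 in every group but the induced.

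Single arrays lay far from the other 4 of their group, by the gap over the range, in 12 of 132 groups checked, where chance gives about 1 in 20. Parental vehicle replicate 4 was low for HSPA5 (13.72, others 14.02 to 14.06), HSPA9 (13.63, others 14.00 to 14.07) and HSP90AB1 (14.19, others 14.53 to 14.65), and high for DNAJB5 (3.90, others 3.65 to 3.69). Parental vehicle replicate 2 was high for DNAJC19 (10.85) and low for DNAJC5 (8.35), and parental vehicle replicate 5 was high for HSPE1 (14.39). In induced cells, replicate 4 was high for HSPD1 (15.44) and low for HSPH1 (10.52), replicate 5 was high for DNAJC1 (12.74) and replicate 1 was high for DNAJC7 (13.48). Mock-induced replicate 5 was low for DNAJC15 (5.62).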

How the results depend on the processing

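For induced against mock-induced cells, 12 genes were called higher and 14 lower. The count higher was 6 without _s_at and _x_at probe sets, 5 with centring on poly-A controls and 6 with a separate spread for each group. With Benjamini-Hochberg adjustment 23 were higher and 25 lower. Leaving out single arrays gave 10 to 11 higher and 14 lower. For parental cells the count stayed at 0 in every setting, and poly-A centring turned HSPA4 to −0.16 and HSPBP1 to −0.19.

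Between mock-induced and parental vehicle cells, 2 were higher and 4 lower. Without _s_at and _x_at probe sets, with poly-A centring and with the replicate block 1 was higher and 1 lower, and with hybridization centring and with a separate spread 1 was higher and 2 lower. Without the filter 2 were lower, with all 20 arrays in 1 model 8 were lower, and with Benjamini-Hochberg adjustment 17 were higher and 24 lower. Leaving out single arrays gave 1 higher and 3 to 4 lower. Among all 10834 genes tested, 1425 were higher and 1180 lower between these groups. Without _s_at and _x_at probe sets 1228 of 8502 were higher and 850 lower. Of the 10834, 770 were higher and 353 lower with poly-A centring, and 669 and 364 with the block. Hybridization centring gave 1107 and 903, and a separate spread 532 and 438. With all 20 arrays in 1 model 1880 were lower.

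For the interaction, 7 were higher and 14 lower. Without _s_at and _x_at probe sets 3 were higher, with hybridization centring 2 were higher, with poly-A centring 1 was higher and 5 lower, and with Benjamini-Hochberg adjustment 23 were higher and 24 lower. Leaving out single arrays gave 7 to 8 higher and 14 lower. Among all 10834 genes tested, 2791 were higher and 2399 lower for the interaction. Without _s_at and _x_at probe sets 1951 of 8502 were higher, and with hybridization centring 1147 of 10834. With poly-A centring 689 of 10834 were higher and 1169 lower.

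The methods say that treated and untreated parental cells were handled as pairs on each day. They also describe the induction experiment, with both treatments, as repeated on 5 days. The labels do not tie replicate numbers to days. The numbers were therefore not taken to pair the arrays. Over the genes tested, deviations from the group means correlated between same-numbered arrays at 0.02 to 0.22 for induction and −0.06 to 0.18 in parental cells. For induction, 3 of 5 correlated best with their own number. These values leave it unsettled whether the numbers mark pairs. With the replicate block 11 were higher and 10 lower after induction. For the interaction 5 were higher and 13 lower, where DNAJB5, DNAJC28 and HSPA5 lost their calls. Of all 10834 genes tested, 2029 were higher and 1722 lower after induction with the block, and 2146 and 1978 for the interaction. After induction, the block ended the calls of HSPA5, HSP90AB1, DNAJB6, DNAJB14, DNAJC4, DNAJC16 and HSPA4, and HSPB1 and HSPBP1 gained one. All 20 arrays in 1 model ended the call of DNAJC1, and averaged probe sets ended those of DNAJB14, DNAJC7, DNAJC13, DNAJC18 and HSPA4. Of 235 values of the 27 genes named for induction under settings other than leaving out an array, 201 kept direction and call, 24 lost the call, 10 gained one and 0 turned sign. The causes were not tested. Values near 2.19 have no order.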
